A study of Mus musculus with 6 samples.

Results

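The genes described here encode 10 surface proteins used to define, or to keep out of, a sort of granulocyte-monocyte progenitors, the cells of the marrow from which neutrophils and monocytes develop. They are Kit, Cd34, Fcgr3, Fcgr2b, Flt3, Ly6a, Cd48, Slamf1, Il7r and Ly6g, taken by symbol from the deposited count table, where 10 of 10 had a row among 16539 genes. Each of the 6 RNA-seq libraries came from granulocyte-monocyte progenitors sorted from the bone marrow of wild-type (WT) mice on day 3 after myocardial infarction. In 3 libraries the mice had undergone sleep fragmentation and infarction (SF + MI), and in 3 they were controls with infarction (MI), so that infarction was common to all the animals and no library came from uninfarcted mice. The labels give neither the antibodies nor the gate, nor how many mice went into a library, and p-values therefore measure only the spread between these libraries, which may in part be technical. The design text names as its question how these progenitors grow and differentiate towards neutrophils.

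In the usual mouse gate, granulocyte-monocyte progenitors lack lineage markers and Sca-1, carry KIT and CD34, and bind strongly an antibody to the Fc receptors CD16 and CD32. KIT is the receptor of stem cell factor and marks early progenitors, while CD34 is a sialomucin that is lost as progenitors mature. Sca-1 (gene Ly6a), FLT3, CD48 and CD150 (gene Slamf1) serve to divide stem cells and multipotent progenitors, the interleukin 7 receptor (gene Il7r) marks lymphoid progenitors, and Ly6G marks maturing neutrophils. Transcripts and surface proteins need not follow each other, and read counts do not measure the proteins on which cells were sorted.

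The promoters of 3 genes are shown because these had the patterns the results turn on: in the 3 libraries in which Ly6g was highest, Cd34 was lowest and Fcgr3 highest. Each is the stretch of 250 bases before the gene's first listed start in RefSeq, build GRCm38.p6, whereas the counts were made on GRCm39, and capitals mark matches on either strand to the motifs named after them. They lie at chr1:194938571-194938820 (Cd34, + strand), chr1:171059404-171059653 (Fcgr3, - strand) and chr15:75155011-75155260 (Ly6g, + strand).
Cd34: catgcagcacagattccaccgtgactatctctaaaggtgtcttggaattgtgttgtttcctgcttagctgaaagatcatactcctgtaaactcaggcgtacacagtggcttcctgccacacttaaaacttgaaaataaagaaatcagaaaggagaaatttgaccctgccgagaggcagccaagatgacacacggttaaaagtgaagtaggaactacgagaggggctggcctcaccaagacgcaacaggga
Fcgr3: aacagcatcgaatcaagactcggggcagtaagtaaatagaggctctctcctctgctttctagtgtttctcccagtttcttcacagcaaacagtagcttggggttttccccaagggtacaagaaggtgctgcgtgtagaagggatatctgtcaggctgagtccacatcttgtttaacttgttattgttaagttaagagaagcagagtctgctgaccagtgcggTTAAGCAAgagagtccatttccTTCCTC
Ly6g: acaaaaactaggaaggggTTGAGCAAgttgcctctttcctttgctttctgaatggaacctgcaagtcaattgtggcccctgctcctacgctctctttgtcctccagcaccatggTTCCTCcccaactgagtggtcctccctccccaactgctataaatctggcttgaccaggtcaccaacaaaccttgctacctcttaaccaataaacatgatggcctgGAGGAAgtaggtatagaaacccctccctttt
The motifs searched were AGATAA for GATA factors, GAGGAA for PU.1, TGTGGT for RUNX factors and TTNNGCAA for C/EBP factors, and no matches overlapped in the sequences shown. Ly6g had 2 matches to the PU.1 motif and 1 to the C/EBP motif, Fcgr3 had 1 of each, and Cd34 had 0 matches, which says only that these letters are not in its window. In the window of a second listed start, Ly6g had 2 PU.1 and 0 C/EBP matches, and Fcgr3 again had 1 of each. Of 32851 promoter windows of the same length, 23.3% held the PU.1 motif, 9.56% the C/EBP motif, 9.99% the GATA motif and 14% the RUNX motif. A promoter was listed for 9 of the 10 genes, all but Ly6a. Among those not shown, Kit had 1 PU.1 match in the windows of both its listed starts, Cd48 had 1 RUNX match and Il7r had 1 C/EBP match. Fcgr2b, Flt3 and Slamf1 had no match to these motifs. Whether the motifs bear on the levels was not tested.

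The libraries held between 28971253 and 31665923 counts. The sorted cells were checked against 12 genes of granulocyte-monocyte progenitors, among them Mpo, Elane and Ctsg of the primary granules. All 12 passed the filter on low counts, and their summed level was 13600 to 19780 CPM in SF + MI libraries and 18340 to 20520 CPM in MI libraries, where CPM stands for counts per 1e+06 counts, with library sizes scaled by TMM factors. Of these 12, 2 fitted levels were higher and 10 lower in SF + MI, with a median log2 fold change of -0.17, and 0 passed edgeR's test or had an unadjusted p under 0.05. The median was -0.05 without SF + MI replicate 1, -0.31 without SF + MI replicate 2 and -0.10 without MI replicate 3. Elane and Prtn3, 2 of the 12, were without overlap between groups and lower in SF + MI (3.84% of all tested genes were lower without overlap). Markers of other cells were read beside them. Some members are also in these lists: Ly6a and Slamf1 in that of stem and multipotent cells, Il7r in that of lymphoid progenitors. Ly6g is in that of maturing neutrophils. A list of 16 genes of maturing neutrophils summed to 25980 to 72640 CPM in SF + MI libraries and 24590 to 44000 CPM in MI libraries, with 16 of 16 members tested. For stem and multipotent cells, 7 of 16 genes passed the filter, Fgd5 was at 0 in all 6 libraries, and sums were 76.1 to 133.8 CPM in SF + MI libraries and 88.0 to 168.2 CPM in MI libraries. For lymphoid progenitors 11 of 12 genes passed, 0 were at 0 in all 6 libraries, and the sums were 12.2 to 21.1 CPM in SF + MI libraries and 7.77 to 19.4 CPM in MI libraries. For megakaryocyte and erythroid progenitors 14 of 15 passed, with 0 at 0 in all 6 libraries and sums of 63.3 to 90.3 CPM in SF + MI libraries and 49.4 to 91.6 CPM in MI libraries. In sorted bulk RNA, fewer cells of a type and less RNA per cell cannot be told apart.

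The order of the levels was set by CPM per kilobase of exon, with exon lengths from GENCODE M21. Fcgr3, the activating low-affinity IgG receptor (CD16), averaged 194.0 ± 25.4 CPM per kilobase (SD, n = 6 libraries), above 98.3% of the tested genes. Ly6g followed at 183.0 ± 120.6, Cd48 at 60.9 ± 12.2, Fcgr2b at 24.8 ± 1.29, Kit at 19.3 ± 1.95 and Cd34 at 5.89 ± 2.09 CPM per kilobase (SD, n = 6 each). Far below these stood Ly6a at 0.93 ± 0.61, Il7r at 0.42 ± 0.21, Flt3 at 0.31 ± 0.067 and Slamf1 at 0.0068 ± 0.014 CPM per kilobase (SD, n = 6 each). Fcgr3 was above Ly6g in 4 of 6 libraries, Ly6a above Il7r in 4 of 6 and Il7r above Flt3 in 3 of 6, and the ranges of these neighbours overlapped. The other neighbours had ranges over the 6 libraries that did not overlap, so that Cd48 lay above Fcgr2b, Fcgr2b above Kit, Kit above Cd34 and Cd34 above Ly6a in every library. The transcripts of the proteins a progenitor gate keeps were thus at measurable levels, while 3 of the 4 members that mark earlier cells were near the bottom of the tested genes or untested. The marker of lymphoid progenitors and that of maturing neutrophils differed. Il7r was near the bottom, whereas Ly6g lay above Cd48, Fcgr2b, Kit and Cd34 in every library. Flt3 exceeded 8.73% of the tested genes, Il7r 10.9% and Ly6a 17.4%, against 46.9% for Cd34, 77.9% for Kit, 82.8% for Fcgr2b, 94.1% for Cd48 and 98.2% for Ly6g.

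**Figure D1:**
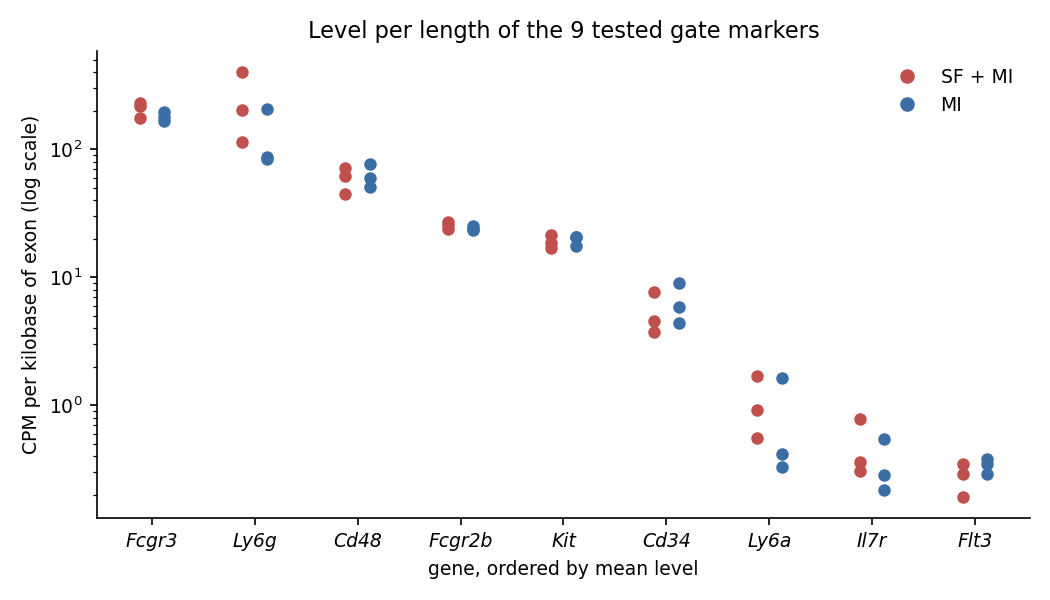
Level per length (CPM per kilobase of exon, log axis) of the 9 tested genes in each library, with SF + MI libraries left of MI libraries for each gene. Fcgr3 and Ly6g lead at means of 194.0 and 183.0, Ly6g spans the wider range, and Ly6a, Il7r and Flt3 lie below 2 in every library.

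Across 12097 genes, SF + MI was set against MI. Of the 10 genes 9 passed the filter on low counts and were tested, and Slamf1 did not pass. With p-values of edgeR's quasi-likelihood test adjusted over all genes, 0 of the 9 passed (adjusted p = 0.99988 for each), as did 0% of all tested genes. At an unadjusted p under 0.05 there were 0 of the 9 by edgeR, beside 2.82% of all tested genes (341; 2.16% higher and 0.661% lower), and 0 by limma-voom and 0 by DESeq2. The groups overlapped in all 9, beside 6.75% of tested genes whose groups did not (2.92% higher and 3.84% lower). Fitted levels were higher in SF + MI for 5 of the 9 and lower for 4, with a median log2 fold change of 0.078, beside -0.004 over all tested genes.

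Of the 4 genes kept by the gate 0 passed, and their intervals were narrow for Kit, Fcgr3 and Fcgr2b and wide for Cd34. Kit had 150.1, 192.5 and 165.6 CPM in SF + MI replicates 1 to 3, against 183.9, 156.0 and 185.0 CPM in MI replicates 1 to 3. The groups overlapped, with SF + MI replicate 1 lowest and SF + MI replicate 2 highest of the 6. Its log2 fold change was -0.05 (SE 0.13, 95% interval -0.35 to 0.26, edgeR adjusted p = 0.99988). Kit was thus among the steady members: its highest library was 1.28 times its lowest.

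Fcgr3 had 400.8, 304.9 and 378.8 CPM in SF + MI replicates 1 to 3, against 308.8, 336.9 and 291.0 CPM in MI replicates 1 to 3. SF + MI replicates 1 and 3 stood above all MI libraries, while SF + MI replicate 2 lay among them. The means were 361.5 ± 50.2 CPM in SF + MI and 312.2 ± 23.1 CPM in MI (SD, n = 3 each), a log2 fold change of 0.21 (SE 0.14, 95% interval -0.11 to 0.53, edgeR adjusted p = 0.99988).

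Fcgr2b, the inhibitory IgG receptor (CD32), had 148.0, 138.8 and 155.5 CPM in SF + MI replicates 1 to 3, against 145.0, 138.7 and 135.4 CPM in MI replicates 1 to 3. It was the steadiest of the 9, with a highest library 1.15 times its lowest and groups that overlapped. Between groups it had a log2 fold change of 0.08 (SE 0.11, 95% interval -0.16 to 0.32, edgeR adjusted p = 0.99988), which was -0.03 when libraries were scaled by library size only, which moved the median of all tested genes to -0.106. A commonly used antibody binds the proteins of both Fcgr3 and Fcgr2b. Their reads stood in a ratio of 2.71, 2.20 and 2.44 Fcgr3 reads per Fcgr2b read in SF + MI replicates 1 to 3, and 2.13, 2.43 and 2.15 in MI replicates 1 to 3. The ratios overlapped between groups. The extracellular parts of the IgG receptors are alike in sequence, and reads that fit several of them may have been dropped or assigned to another copy.

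Cd34 varied the most among the genes kept by the gate. It had 27.5, 56.2 and 33.3 CPM in SF + MI replicates 1 to 3, against 42.5, 32.3 and 66.0 CPM in MI replicates 1 to 3. The highest library, MI replicate 3, had 2.40 times the level of the lowest, SF + MI replicate 1, and within each group the highest was 2.04 times the lowest in SF + MI and 2.05 times in MI. The means were 39.0 ± 15.2 CPM in SF + MI and 47.0 ± 17.3 CPM in MI (SD, n = 3 each), with a log2 fold change of -0.27 (SE 0.31, 95% interval -0.98 to 0.44, edgeR adjusted p = 0.99988). Single libraries set its size and sign: it was -0.63 without SF + MI replicate 2 (edgeR adjusted p = 0.4606) and 0.06 without MI replicate 3 (edgeR adjusted p = 0.9997).

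**Figure D2:**
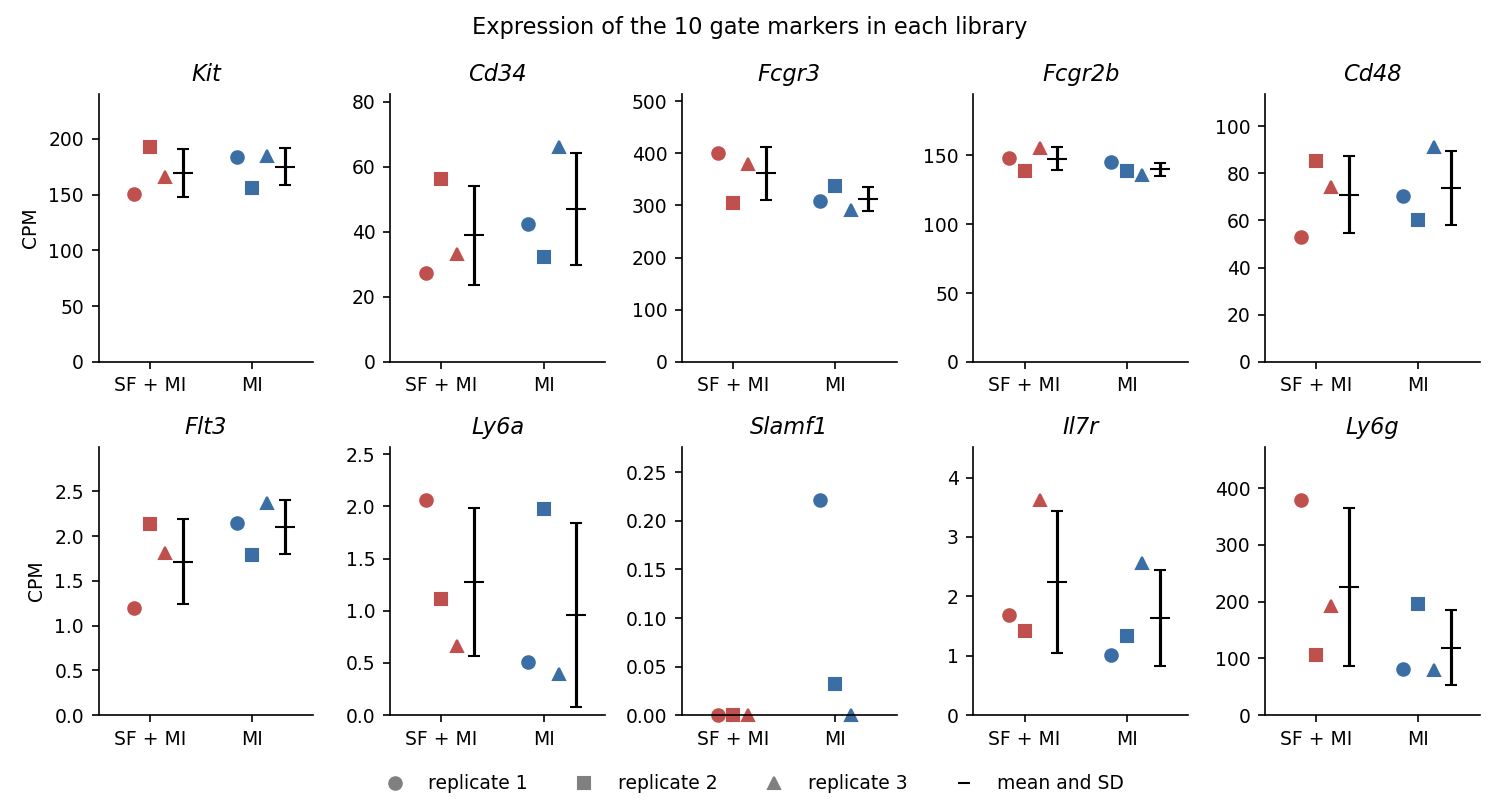
Expression (CPM, linear axes from 0) of the 10 genes in each library, SF + MI left of MI, with symbols for replicates and a bar for the mean and SD of each group (no bar for Slamf1, which had 8 reads in all). The groups overlap in each of the 9 tested panels, and Cd34 and Ly6g spread more within groups than Kit, Fcgr3 and Fcgr2b.

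Among the genes that divide earlier progenitors, Cd48, a partner of the SLAM family carried by most progenitors but not by stem cells, was well expressed. It had 53.1, 85.3 and 74.1 CPM in SF + MI replicates 1 to 3, against 70.5, 60.2 and 91.1 CPM in MI replicates 1 to 3. The lowest library was SF + MI replicate 1 and the highest MI replicate 3, as for Cd34. The log2 fold change was -0.06 (SE 0.20, 95% interval -0.52 to 0.40, edgeR adjusted p = 0.99988). Its sign turned without SF + MI replicate 1 (0.11) and without MI replicate 3 (0.12).

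Flt3, the receptor of FLT3 ligand on multipotent and lymphoid-primed progenitors, had few reads, with counts of 32, 69 and 49 in SF + MI replicates 1 to 3 and 68, 56 and 78 in MI replicates 1 to 3. These are 1.20, 2.13 and 1.81 CPM in SF + MI, against 2.15, 1.78 and 2.37 CPM in MI. SF + MI replicate 1 was lowest again, and the groups overlapped. For Flt3 the log2 fold change was -0.29 (SE 0.37, 95% interval -1.13 to 0.55, edgeR adjusted p = 0.99988). It was -0.09 without SF + MI replicate 1, -0.20 without MI replicate 3 and -0.48 without SF + MI replicate 2.

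Ly6a, whose protein Sca-1 is absent from the usual gate and is known to be induced by interferon, had counts of 55, 36 and 18 in SF + MI replicates 1 to 3, and 16, 62 and 13 in MI replicates 1 to 3. In CPM these were 2.06, 1.11 and 0.66 in SF + MI, against 0.51, 1.97 and 0.40 in MI. SF + MI replicate 1 and MI replicate 2 were the high libraries, and each group held high and low values. For Ly6a the log2 fold change was 0.41 (SE 0.71, 95% interval -1.19 to 2.02, edgeR adjusted p = 0.99988), the widest interval of the 9. It was 1.502 without MI replicate 2 and -0.10 without SF + MI replicate 1. Ly6a2, another gene of the Ly6 family, averaged 641.3 ± 223.5 CPM in SF + MI and 433.3 ± 89.1 CPM in MI (SD, n = 3 each). Whether reads were shared between Ly6a and Ly6a2 at counting was not tested. Slamf1 had 0 counts in each SF + MI library and 7, 1 and 0 counts in MI replicates 1 to 3. A count of 0 allows up to 3 counts, or 0.0928 to 0.112 CPM in the SF + MI libraries, so a difference was not detectable at this depth, and no fold is given.

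The remaining pair marks lymphoid progenitors (Il7r) and maturing neutrophils (Ly6g). Il7r had counts of 45, 46 and 98 in SF + MI replicates 1 to 3 and 32, 42 and 84 in MI replicates 1 to 3, or 1.68, 1.42 and 3.62 CPM in SF + MI, against 1.01, 1.34 and 2.56 CPM in MI. Replicate 3 was the highest of its group in both. The log2 fold change was 0.45 (SE 0.51, 95% interval -0.70 to 1.61, edgeR adjusted p = 0.99988), and it was -0.08 without SF + MI replicate 3 and 0.93 without MI replicate 3.

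Ly6g showed the largest fitted difference of the 9. It had 378.4, 106.8 and 192.5 CPM in SF + MI replicates 1 to 3, against 82.1, 195.1 and 79.3 CPM in MI replicates 1 to 3. SF + MI replicate 1 was the highest, but MI replicate 2 exceeded SF + MI replicates 2 and 3, so the groups overlapped. The means were 225.9 ± 138.9 CPM in SF + MI and 118.8 ± 66.1 CPM in MI (SD, n = 3 each). The log2 fold change of 0.93 (SE 0.48, 95% interval -0.15 to 2.005) missed the threshold of edgeR's test (adjusted p = 0.99988, unadjusted p = 0.08361). It was 0.33 without SF + MI replicate 1, 1.26 without SF + MI replicate 2 (edgeR adjusted p = 0.4405) and 1.49 without MI replicate 2 (edgeR adjusted p = 0.6773). Ly6g lies in a cluster of similar genes, and its reads may have been shared with near copies at counting.

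**Figure D3:**
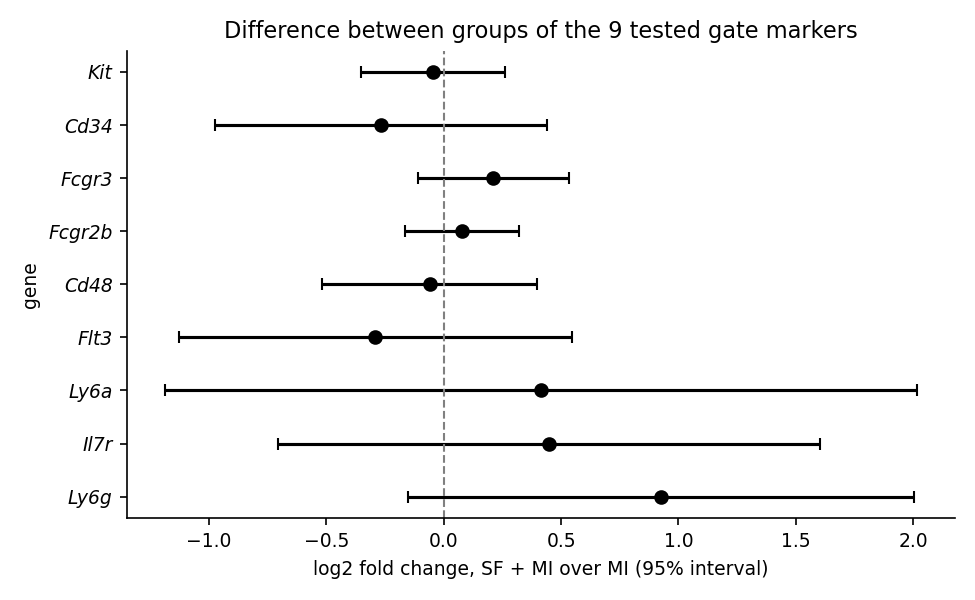
Log2 fold change of SF + MI over MI with its 95% interval for the 9 tested genes, on a linear axis with 0 marked. Each interval includes 0, from the narrow one of Fcgr2b (-0.16 to 0.32) to the wide one of Ly6a (-1.19 to 2.02).

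Libraries of the same group varied, with a within-group SD of log2 CPM above the size of the log2 fold change between groups in 6 of the 9 tested genes. This SD was 0.829 for Ly6g, 0.527 for Cd34 and 0.327 for Cd48, beside 0.165 for Fcgr3, 0.162 for Kit and 0.068 for Fcgr2b. Among 9507 genes with a mean CPM of at least 5, the median was 0.189. Ly6g spread more than 99.7% of these genes, Cd34 more than 96.5% and Cd48 more than 82.2%, whereas Kit spread more than 39.8%, Fcgr3 more than 41.2% and Fcgr2b more than 4.87%.

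The order of the libraries was shared by several genes. Cd34, from low to high, ran SF + MI replicate 1, MI replicate 2, SF + MI replicate 3, MI replicate 1, SF + MI replicate 2 and MI replicate 3. Kit and Flt3 had the same 3 lowest libraries in the same order, and Cd48 had the same 2 lowest and the same 2 highest. Ly6g ran nearly the other way, with SF + MI replicate 1, MI replicate 2 and SF + MI replicate 3 highest, and Fcgr3 had the same 3 libraries highest. These libraries came from both groups. There were 13.8, 1.90 and 5.79 Ly6g reads per Cd34 read in SF + MI replicates 1 to 3, and 1.93, 6.04 and 1.20 in MI replicates 1 to 3.

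**Figure D4:**
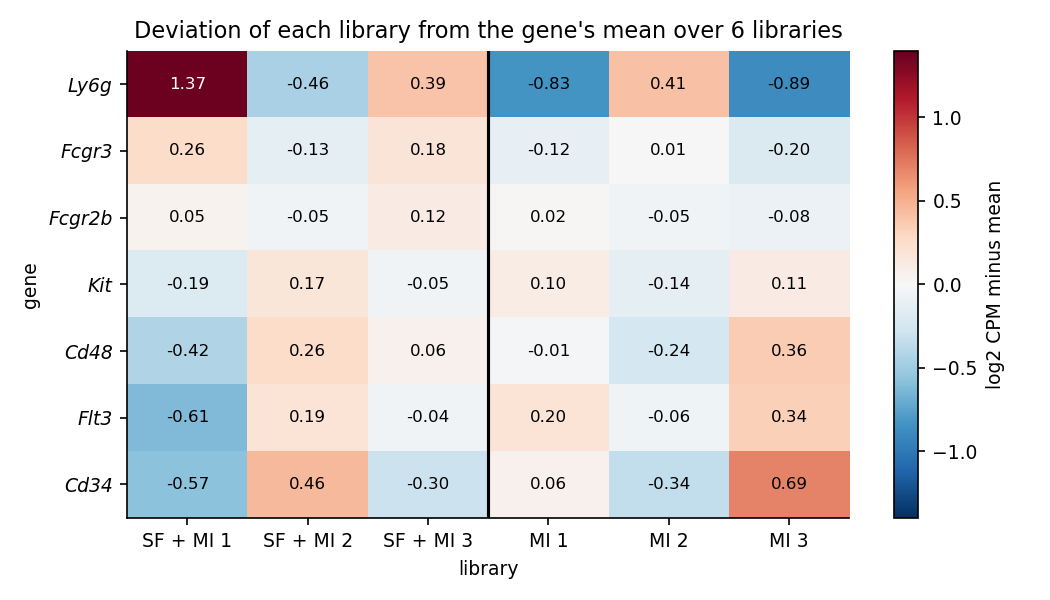
Deviation of each library (columns, SF + MI left of MI) from the gene's mean over 6 libraries, in log2 CPM, for 7 genes. Ly6g and Fcgr3 are above their means in SF + MI replicates 1 and 3 and MI replicate 2, where Kit, Flt3 and Cd34 are below theirs, and Ly6g reaches 1.37 in SF + MI replicate 1.

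Genes of maturing neutrophils moved with this order. Without Ly6g, 15 of them, such as Ltf and Camp of the secondary granules, summed to 72260, 25880 and 51980 CPM in SF + MI replicates 1 to 3, and to 30470, 43800 and 24510 CPM in MI replicates 1 to 3. The 3 libraries with the highest sums were those with the highest Ly6g and Fcgr3 and the lowest Cd34, Kit and Flt3. Of the 16 genes of this list with Ly6g, 0 passed edgeR's test over all genes and 6 were higher at an unadjusted p under 0.05 (2.16% of all tested genes), among them Fpr2, Retnlg, Mmp8 and Cxcr2, the receptor for neutrophil-attracting chemokines (317.6 ± 118.6 CPM in SF + MI and 171.7 ± 63.2 CPM in MI, SD, n = 3 each). All 16 had higher fitted levels in SF + MI, where 49% of all tested genes had, with a median log2 fold change of 0.62, beside -0.004 over all tested genes, and the median was 0.28 without SF + MI replicate 1 and 0.94 without SF + MI replicate 2. The part of these cells or transcripts in the levels of Ly6g, Fcgr3, Kit, Flt3 and Cd34 was not tested.

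**Figure D5:**
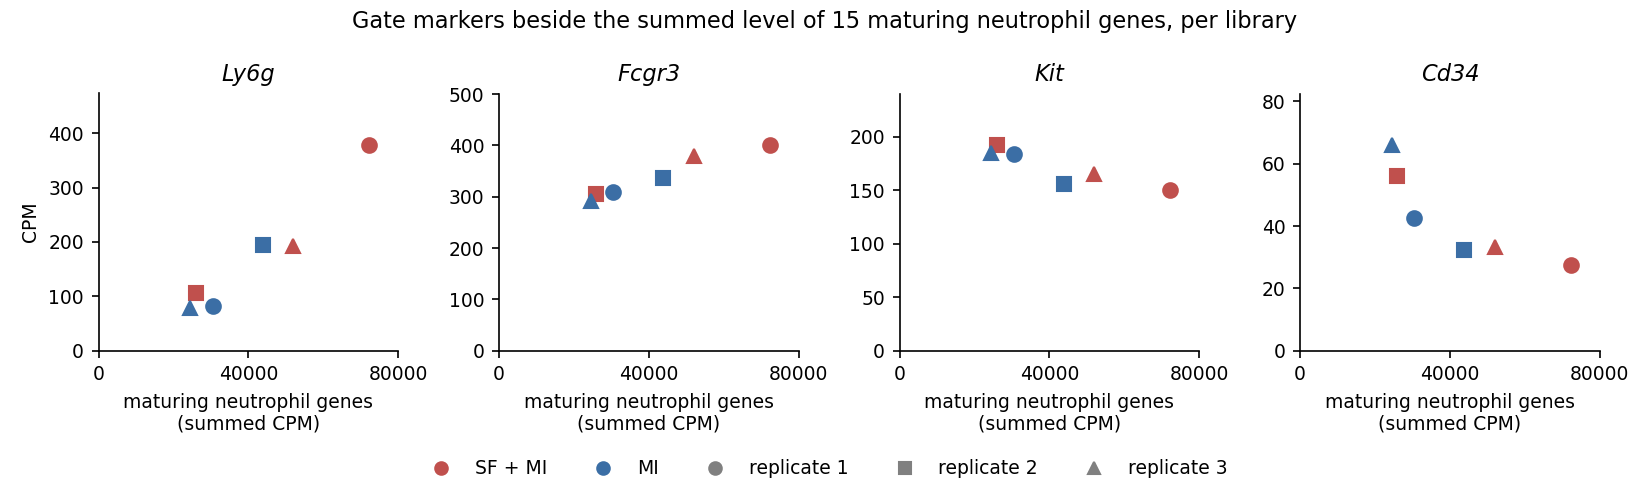
Level of 4 genes (CPM, linear axes from 0) against the summed level of 15 genes of maturing neutrophils (CPM) in each library, SF + MI in red and MI in blue. Ly6g and Fcgr3 are highest, and Kit and Cd34 lowest, in the 3 libraries with sums of 43800 CPM or more, SF + MI replicates 1 and 3 and MI replicate 2.

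The genes whose log2 CPM over the 6 libraries was most like that of a gate marker were looked up among genes with a mean CPM of at least 5, as a description of 6 libraries with shared sources of variation. For Cd34 they were Irf8, a transcription factor of the monocyte lineage (Pearson r = 0.9989), and Wdr59 (r = 0.9948). Irf8 had 120.6, 200.1 and 141.1 CPM in SF + MI replicates 1 to 3 and 165.4, 139.1 and 226.3 CPM in MI replicates 1 to 3, in the same order of libraries as Cd34. For Kit they were Mzt2 (r = 0.9988) and Gnl3, a nucleolar protein of proliferating cells (r = 0.9987). For Fcgr3 they were Septin1 (r = 0.9978) and Stk39, a kinase (r = 0.9974). A correlation of at least 0.95 was reached with Kit by 300 of 9506 genes searched (3.16%), with Cd34 by 147 (1.55%), with Fcgr3 by 329 (3.46%), with Ly6g by 608 (6.4%) and with Fcgr2b by 13 (0.137%).

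Partners of the members were read in lists, some of which also hold members. In KIT and FLT3 signalling, 32 of 33 genes were tested, 0 passed edgeR's test over all genes, and at an unadjusted p under 0.05 there were 2, both higher in SF + MI (2.16% of all tested genes). They were Kitl, which encodes stem cell factor, the ligand of KIT, and Socs1, an inhibitor of cytokine signalling. Kitl had 11, 14 and 22 counts in SF + MI replicates 1 to 3, against 2, 0 and 2 counts in MI replicates 1 to 3, so that the SF + MI libraries did not overlap with MI libraries at or under the 3 counts a zero allows (edgeR adjusted p = 0.99988). Socs1 had 1.496, 1.92 and 1.66 CPM in SF + MI, against 0.60, 1.08 and 0.70 CPM in MI, again without overlap (edgeR adjusted p = 0.99988). Dok1 was without overlap and lower, with 26.1, 23.7 and 24.35 CPM in SF + MI replicates 1 to 3, against 29.2, 30.5 and 27.8 CPM in MI replicates 1 to 3. Of all tested genes 2.92% were higher without overlap and 3.84% lower without overlap. The list's median log2 fold change was 0.09, beside -0.004 over all tested genes. It was 0.004 without SF + MI replicate 1, 0.04 without MI replicate 1, 0.06 without MI replicate 3, 0.17 without replicate 2 of either group and -0.025 with scaling to library size alone. Flt3l, the ligand of FLT3, averaged 9.29 ± 1.73 CPM in SF + MI and 7.63 ± 2.49 CPM in MI (SD, n = 3 each).

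Of the SLAM family and its adaptors, 8 of 13 genes were tested, 0 passed and 1 was higher at an unadjusted p under 0.05 (2.16% of all tested genes). This was Cd84, a self-binding receptor of the family, with 129.0, 81.1 and 102.9 CPM in SF + MI replicates 1 to 3, against 62.4, 71.7 and 70.7 CPM in MI replicates 1 to 3. Every SF + MI library was above every MI library, as in 2.92% of all tested genes, with a log2 fold change of 0.61 (SE 0.17, edgeR adjusted p = 0.99988, unadjusted p = 0.005415). Cd84 adjoins Slamf1 in the RefSeq gene order. The median log2 fold change of the list was -0.002, with 4 fitted levels higher and 4 lower.

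Of the Fc receptors and their adaptors 17 of 20 were tested and 0 passed, with 0 at an unadjusted p under 0.05 by edgeR. Fitted levels were higher for 13 and lower for 4, and the median log2 fold change was 0.18, or 0.32 without SF + MI replicate 2 and 0.06 with scaling to library size alone. Ptpn6, a phosphatase that acts downstream of inhibitory receptors, averaged 396.3 ± 78.4 CPM in SF + MI and 357.8 ± 51.9 CPM in MI (SD, n = 3 each). Of the Ly6 family 17 of 22 genes had a row, 11 were tested and 0 passed, with 0 at an unadjusted p under 0.05 by edgeR and a median of 0.36. Ly6c2, a marker of monocytes and of many progenitors, averaged 1575 ± 115.9 CPM in SF + MI and 1402 ± 108.1 CPM in MI, and Ly6e 519.9 ± 104.6 CPM in SF + MI and 558.8 ± 130.7 CPM in MI (SD, n = 3 each). The Ly6 median was 0.07 without SF + MI replicate 1, 0.57 without SF + MI replicate 3, 0.22 without MI replicate 1, 0.61 without MI replicate 2 and 0.17 without MI replicate 3. Of CD34 relatives and selectin ligands 9 of 12 were tested and 0 passed, with 0 at an unadjusted p under 0.05 by edgeR and a median of 0.18, which was 0.05 without replicate 1 of either group, 0.10 with the stricter filter on low counts and 0.07 with scaling to library size alone. Of the 9 tested, 2 genes, among them Cd164, were without overlap between groups and higher in SF + MI (2.92% of all tested genes). In this list Spn (CD43) averaged 508.8 ± 24.2 CPM in SF + MI and 534.5 ± 47.0 CPM in MI, and the hyaluronan receptor Cd44 532.9 ± 113.3 CPM in SF + MI and 414.0 ± 94.4 CPM in MI (SD, n = 3 each). Of the interleukin 7 receptor and common gamma chain list, 11 of 14 were tested and 0 passed, with 0 at an unadjusted p under 0.05 by edgeR and a median of 0.05. The median was 0.173 without SF + MI replicate 2, 0.005 without SF + MI replicate 3 and -0.04 with scaling to library size alone. Jak1, a kinase bound to these receptors, averaged 332.3 ± 65.9 CPM in SF + MI and 273.5 ± 40.2 CPM in MI (SD, n = 3 each).

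Markers that a lineage cocktail would remove were mostly at low counts. Of 16 such genes, with the member Ly6g in the list, 11 were tested and 0 passed. At an unadjusted p under 0.05 by edgeR 2 were higher (2.16% of all tested genes), among them the T cell gene Cd3d. The median log2 fold change of the list was 0.56, beside -0.004 over all tested genes, and it was 0.33 without SF + MI replicate 1 and 0.82 without SF + MI replicate 2. Cd3d had 3.40, 0.93 and 3.65 CPM in SF + MI replicates 1 to 3, against 0.79, 1.24 and 0.76 CPM in MI replicates 1 to 3, and the groups overlapped. Cd3e, another T cell gene, had 1, 2 and 3 counts in SF + MI and 3, 0 and 1 in MI. The sum of the list, 1122 to 2681 CPM in SF + MI libraries and 967.6 to 1667 CPM in MI libraries, came mainly from Itgam (CD11b), with 1614 ± 642.8 CPM in SF + MI and 1092 ± 305.9 CPM in MI (SD, n = 3 each).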

How the data were processed

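The tools named in the submitters' processing notes are fastp, HISAT2 and HTSeq, and the build is GRCm39. No version, strand setting or annotation release is given in the sources used here, so reads of overlapping antisense genes cannot be told apart. The authors deposited raw read counts per gene for 6 libraries, made from polyadenylated RNA. Of 16539 genes, 653 had no read. Counts were tested in R 4.3.3 with edgeR 4.0.16: filterByExpr (minimum count 10, minimum total 15) kept 12097 genes, TMM factors were 0.910 to 1.09, and the robust quasi-likelihood F-test had 4 residual degrees of freedom and Benjamini-Hochberg adjustment over all genes tested, with a threshold of 0.05. Alternatives used limma 3.58.1, DESeq2 1.42.0, other scalings and filters, a replicate block, and each library left out. The test was checked on simulated counts. Log2 CPM used a prior count of 2. Intervals use the SE and the moderated degrees of freedom, and counting limits cover counting error only. Exon lengths are unions of exons in GENCODE M21 (GRCm38), matched by symbol.

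The members and lists were chosen with earlier results of these data known. Genes named are the 10 members, and of each list up to 4 at an unadjusted p under 0.05, or the 2 with the highest mean CPM where none was. To these come the 2 genes most correlated with Kit, Cd34 and Fcgr3. Flt3l, Cd3e, Itgam, Fgd5, Gata1, Ctsg, Ltf, Camp, Prtn3, Cd164, Dok1 and Ly6a2 were named after their values were seen. Not every gene taken by this rule is reported here. Replicate numbers were shared by the groups, but deviations of same-numbered libraries correlated at -0.420, -0.684 and -0.094, and the numbers were not taken as pairs.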

Additional observations from a re-analysis of the deposited data

How the results depend on the processing

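Over 13 alternatives, 0 of the tested members passed in any. The count of genes called was 0 except with DESeq2, which called 13, and it stayed at 0 to 0 in the 6 fits that each left out a library, as did the count of members called. The count at an unadjusted p under 0.05, 341 as reported, lay between 155 (without MI replicate 1) and 1330 (without SF + MI replicate 2) in those fits, and it was 169 with the replicate block. Signs of small differences turned with single libraries. Over the 6 fits the log2 fold change lay between -0.149 and 0.033 for Kit, -0.629 and 0.060 for Cd34, -0.217 and 0.117 for Cd48, -0.102 and 1.502 for Ly6a, and -0.077 and 0.927 for Il7r, and it was -0.027 for Fcgr2b when scaled by library size only. Of Fcgr3, Flt3 and Ly6g the sign held in all 13. Without SF + MI replicate 2, 3 members (Cd34, Fcgr3 and Ly6g) had an unadjusted p under 0.05 by edgeR, and without MI replicate 2 Ly6g had. The causes were not tested. Depth limits what can be said of Flt3, Ly6a and Il7r, with 13 to 98 reads per library, and of Slamf1, with 8 reads in all.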

Other observations

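Among 20 surface markers of subsets of granulocyte-monocyte progenitors, all tested, 10 fitted levels were higher and 10 lower in SF + MI, with a median log2 fold change of 0.00, and 0 passed edgeR's test over all genes. The median was 0.10 without MI replicate 3 and -0.11 with scaling to library size alone. At an unadjusted p under 0.05 by edgeR there was 1, higher in SF + MI (2.16% of all tested genes). This was Cd33, a sialic acid-binding receptor of myeloid cells, with 328.9, 131.2 and 200.5 CPM in SF + MI replicates 1 to 3, against 99.8, 170.5 and 106.8 CPM in MI replicates 1 to 3. The groups overlapped, and the high libraries were those with high Ly6g. Of 17 transcription factors known to act at Kit, Cd34 or Flt3, 8 fitted levels were higher and 9 lower (median -0.09, or 0.001 without SF + MI replicate 1 and -0.02 without MI replicate 3), 0 passed, and 0 had an unadjusted p under 0.05 by edgeR. Myb, which maintains progenitors, averaged 549.5 ± 128.3 CPM in SF + MI and 586.0 ± 25.3 CPM in MI, and Ikzf1 493.8 ± 100.2 CPM in SF + MI and 434.0 ± 53.7 CPM in MI (SD, n = 3 each).

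Of 14 tested genes of megakaryocyte and erythroid progenitors 0 passed, and 2 were higher at an unadjusted p under 0.05 (2.16% of all tested genes), without overlap between groups (2.92% of all tested genes higher without overlap). The median log2 fold change of the list was 0.52, and it was 0.21 without SF + MI replicate 3, 0.23 without MI replicate 2 and 0.86 without SF + MI replicate 2. Car1, an early erythroid carbonic anhydrase, had 3.85, 4.55 and 5.72 CPM in SF + MI replicates 1 to 3, against 3.22, 2.04 and 2.86 CPM in MI replicates 1 to 3. Klf1, an erythroid transcription factor, averaged 0.97 ± 0.24 CPM in SF + MI and 0.39 ± 0.16 CPM in MI (SD, n = 3 each). Gata1, which acts in the same lineages, averaged 4.60 ± 0.61 CPM in SF + MI and 5.10 ± 1.10 CPM in MI (SD, n = 3 each). Of 7 tested genes of stem and multipotent cells, 1 fitted level was higher, that of the member Ly6a, and 6 lower. The median was -0.31, or -0.12 without SF + MI replicate 1 and -0.20 without MI replicate 3. Of these 7 genes, 0 passed, and 0 had an unadjusted p under 0.05 by edgeR. In this list Gata2 averaged 75.6 ± 25.2 CPM in SF + MI and 80.4 ± 38.1 CPM in MI, and Hlf 12.4 ± 0.74 CPM in SF + MI and 14.6 ± 2.03 CPM in MI (SD, n = 3 each). Of 11 tested lymphoid genes, with the member Il7r among them, 8 fitted levels were higher and 3 lower (median 0.38). Of these genes 0 passed, and 0 had an unadjusted p under 0.05 by edgeR. Single libraries turned this median: it was -0.27 without SF + MI replicate 3, -0.12 without MI replicate 2, 0.20 without MI replicate 1 and 0.93 without MI replicate 3. Tcf7 averaged 3.35 ± 0.74 CPM in SF + MI and 2.56 ± 0.89 CPM in MI, and Lax1 1.95 ± 0.41 CPM in SF + MI and 2.64 ± 1.04 CPM in MI (SD, n = 3 each).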
